A study of Homo sapiens with 6 samples.

Results

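Kinesins are motor proteins that use ATP to move along microtubules or to shorten them, and each human kinesin gene encodes a motor subunit with its own task. Some build the mitotic spindle, hold and move chromosomes and complete the division of the daughter cells. Others carry vesicles, mitochondria, endosomes or ciliary components, and a further set acts at cilia and centrioles. Members were taken as every gene whose symbol is KIF with a number and an optional letter, or KIFC with a number. This rule found 42 of the 27968 genes in the deposited tables, of which 8 mitotic kinesins (KIF11, KIF14, KIF15, KIF18A, KIF20A, KIF23, KIF2C and KIF4A) were set against 15 transport kinesins. A further 6 genes were grouped as other mitotic kinesins, 6 as cilium and centriole kinesins and 7 as other kinesins.

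The RNA came from T47D, an established human breast cancer cell line that expresses the estrogen receptor, used here as a single line. Cells received either an siRNA against HOTAIR-N, a form of HOTAIR by its name, or a control siRNA, both with the lipid reagent RNAiMAX, and total RNA was extracted 48 hours later. HOTAIR is a long noncoding RNA transcribed from the HOXC cluster. Each group held 3 libraries from independent transfections, made with a stranded kit after removal of ribosomal RNA.

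The libraries held between 31777001 and 36707169 expected counts, which are the read numbers that RSEM assigned to genes. HOTAIR averaged 5.65 ± 0.0242 CPM (counts scaled to a fixed library size) with the HOTAIR-N siRNA and 16.3 ± 0.301 CPM with the control siRNA (SD, n = 3 each). All 9 luminal breast cell markers were detected, and their summed level lay between 8197 and 9059 TPM (transcripts scaled for length and to a fixed total) with the HOTAIR-N siRNA and between 9089 and 10306 TPM with the control siRNA. The keratins KRT8, KRT18 and KRT19 made up most of that sum. Of the 9 markers, 6 were lower, ESR1 at 32.1% and PGR at 36.4% of control among them, CDH1 was higher at 186% of control, and 2 did not pass the edgeR test. The 11 markers of other cell types summed to between 94.0 and 104 TPM with the HOTAIR-N siRNA and to between 29.8 and 33.5 TPM with the control siRNA. Most of this sum was ACTA2, at 89.2 TPM with the HOTAIR-N siRNA and 21.9 TPM with the control siRNA. VIM was higher too, at 1.31 TPM with the HOTAIR-N siRNA and 0.137 TPM with the control siRNA, COL1A1 was lower, and 8 of the 11 (COL1A2, KRT5, KRT14, PTPRC, CD3E, PECAM1, ALB and HBB) were below the count filter. The part of these marker shifts in the kinesin results was not tested. HOTAIR-N siRNA replicate 3 and control siRNA replicate 2 stood apart: pairs of libraries of 1 group that held either had a chi-square per degree of freedom of 6.99 to 9.02 over gene counts, and the pairs without them had 2.37 (HOTAIR-N siRNA) and 2.21 (control siRNA). Counts of calls that moved without both are given beside the result. In bulk RNA, fewer dividing cells and less kinesin RNA per cell cannot be told apart.

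Of the 42 kinesin genes, 36 passed the filter on low counts. With edgeR's quasi-likelihood test, 22 were lower and 9 were higher after the HOTAIR-N siRNA at a Benjamini-Hochberg adjusted p under 0.05 over all genes, and 5 did not pass. Among all 14919 genes tested, 71.1% were called, 34.8% lower and 36.2% higher. Scaling by library totals alone shifted this balance, with 4263 genes lower and 6480 higher, as did upper-quartile scaling, with 4658 lower and 6009 higher. The median log2 fold change, HOTAIR-N siRNA over control siRNA, was -0.53 over the 36 kinesins and 0.02 over all genes tested. At least 2-fold lower levels were found for 12 kinesins, where 6.84% of all genes tested fell that far, and at least 2-fold higher levels for 4, where 8.91% of all genes tested did. The summed level of all kinesin genes was 687, 690 and 707 TPM in the HOTAIR-N siRNA libraries, against 1083, 1105 and 1082 TPM in the control siRNA libraries.

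**Figure D1:**
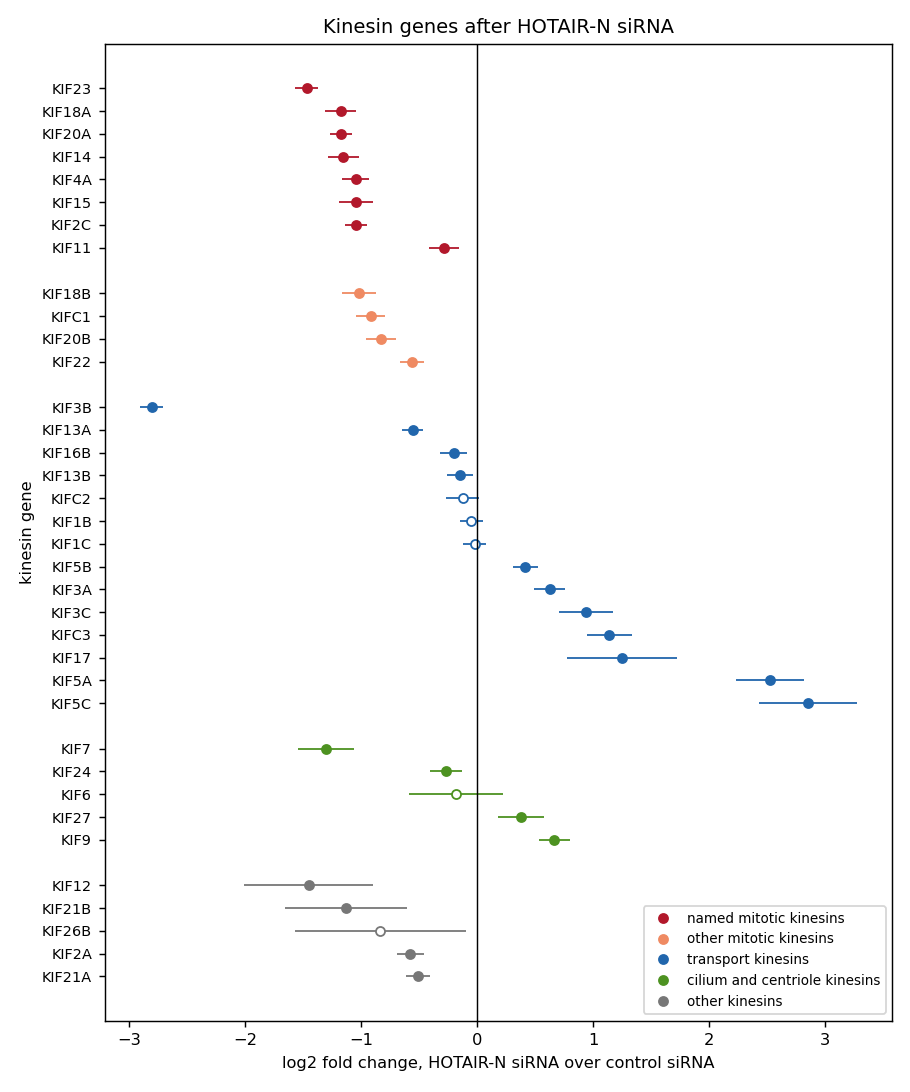
Log2 fold change (HOTAIR-N siRNA over control siRNA, horizontal axis) of the 36 kinesin genes tested, grouped by role, with bars of 2 SE to each side and filled points for genes at an adjusted p under 0.05. All 8 named mitotic kinesins lie below 0, while the transport kinesins run from KIF3B at -2.80 to KIF5C at 2.85.

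The promoters of the 8 named mitotic kinesins and of the kinesin-2 subunits KIF3B and KIF3A are shown because these genes carry the contrasts described below. Many genes expressed late in the cell cycle hold a cell cycle genes homology region (CHR), a short element bound by the DREAM and MYB-MuvB complexes, often beside a CCAAT box bound by NF-Y. The 120 bases below run from 100 before to 20 after the RefSeq start of each gene (GRCh38.p14), on the gene's own strand, and capitals mark CHR letters (TTTGAA, its reverse complement TTCAAA, or the palindrome TTTAAA) and CCAAT letters (CCAAT or ATTGG).
KIF23, chr15:69414249-69414368, plus strand: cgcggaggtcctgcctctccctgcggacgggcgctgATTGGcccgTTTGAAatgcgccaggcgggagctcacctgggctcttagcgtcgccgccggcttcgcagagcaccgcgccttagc
KIF18A, chr11:28108137-28108256, minus strand: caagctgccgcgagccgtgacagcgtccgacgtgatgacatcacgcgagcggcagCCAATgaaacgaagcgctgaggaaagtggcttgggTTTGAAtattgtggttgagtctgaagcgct
KIF20A, chr5:138179012-138179131, plus strand: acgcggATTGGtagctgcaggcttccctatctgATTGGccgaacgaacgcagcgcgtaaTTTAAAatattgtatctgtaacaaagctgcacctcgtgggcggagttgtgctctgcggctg
KIF14, chr1:200620732-200620851, minus strand: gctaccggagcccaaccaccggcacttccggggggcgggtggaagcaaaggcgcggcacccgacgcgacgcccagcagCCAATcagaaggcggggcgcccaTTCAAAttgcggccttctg
KIF4A, chrX:70290004-70290123, plus strand: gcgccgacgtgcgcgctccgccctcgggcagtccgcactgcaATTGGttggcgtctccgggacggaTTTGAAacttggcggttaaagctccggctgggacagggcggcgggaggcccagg
KIF15, chr3:44761694-44761813, plus strand: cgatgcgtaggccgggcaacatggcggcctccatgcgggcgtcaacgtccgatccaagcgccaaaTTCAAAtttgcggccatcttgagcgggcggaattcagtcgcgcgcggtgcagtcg
KIF2C, chr1:44739737-44739856, plus strand: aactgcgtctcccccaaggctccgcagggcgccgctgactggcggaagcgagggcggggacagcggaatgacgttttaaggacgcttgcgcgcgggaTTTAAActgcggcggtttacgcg
KIF11, chr10:92593030-92593149, plus strand: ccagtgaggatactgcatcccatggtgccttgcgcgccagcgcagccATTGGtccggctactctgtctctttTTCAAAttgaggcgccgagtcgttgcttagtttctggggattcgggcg
KIF3B, chr20:32277551-32277670, plus strand: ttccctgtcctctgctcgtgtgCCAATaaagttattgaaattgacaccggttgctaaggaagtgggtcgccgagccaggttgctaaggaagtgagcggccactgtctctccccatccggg
KIF3A, chr5:132737527-132737646, minus strand: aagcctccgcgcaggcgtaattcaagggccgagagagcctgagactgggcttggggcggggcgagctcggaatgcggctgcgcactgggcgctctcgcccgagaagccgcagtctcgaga

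RefSeq promoters were matched for 34 of the 42 kinesin genes, and each was searched on both strands over 300 bases, from 250 before to 50 after the start. The hexamer TTTGAA or TTTAAA was in the window of 8 of 8 named mitotic kinesins, 4 of 6 other mitotic kinesins, 2 of 11 transport kinesins, 0 of 4 cilium and centriole kinesins and 0 of 5 other kinesins. The same letters were in 24.0% of all 35116 promoters of this length and, counted per gene, in at least 1 promoter of 27.9% of 27305 genes. In the 8 named mitotic promoters the hexamer nearest the start began between base -55 (KIF23) and base 2 (KIF14), counted from the start as base 1 with no base 0. In the transport kinesins it began farther upstream, at base -140 in KIF5B and at base -241 in KIF16B. CCAAT letters were in 6 of the 8 named mitotic promoters, with KIF15 and KIF2C the exceptions, in 34.6% of all promoters and in at least 1 promoter of 39.7% of all genes. KIF11, which changed least of the 8, holds both kinds of letters. In a check of strand, bases after the RefSeq start of KIF11 were in 0 of its GENCODE transcripts, so positions from the KIF11 start are less certain. Those of every other promoter printed here were in at least 1 transcript of their gene. Such a match can lie anywhere in a transcript, so it does not show where the start is. KIF3B, which had the largest fall of all kinesins, holds CCAAT letters at base -78 and no hexamer. KIF3A holds neither. KIF13B, KIF5A, KIFC2, KIFC3, KIF19, KIF27, KIF21B and KIF26B were not matched. A match to these letters is a description of the sequence and does not show that a factor binds there.

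**Figure D2:**
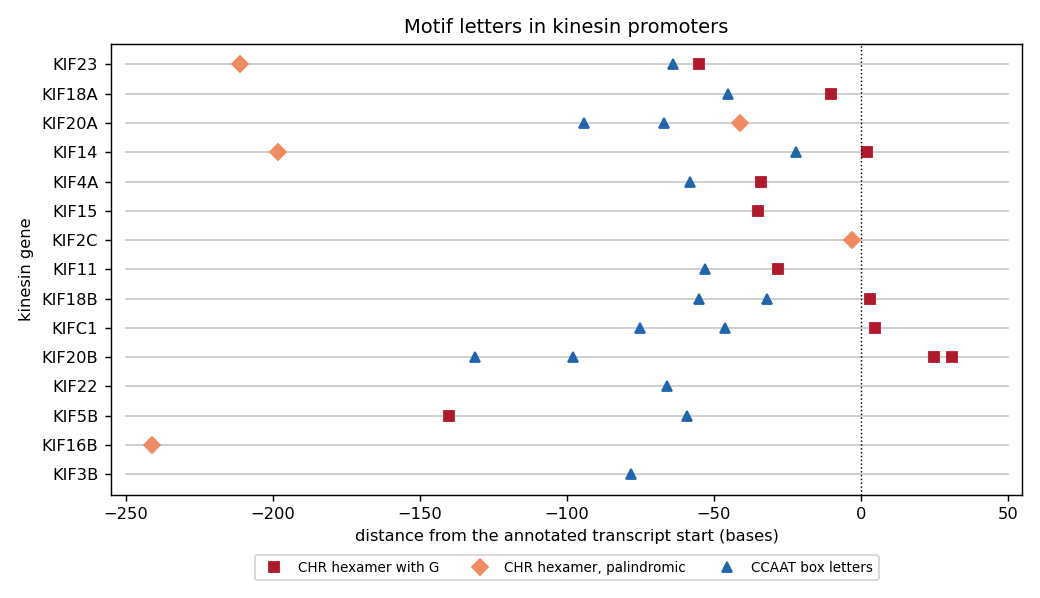
Position of motif letters (horizontal axis, bases from the RefSeq transcript start, dotted line) in the promoters of 12 mitotic kinesins and of KIF5B, KIF16B and KIF3B. Squares and diamonds mark the CHR hexamers TTTGAA and TTTAAA and triangles mark CCAAT letters; in the 8 named mitotic kinesins the hexamer nearest the start lies between bases -55 and 2.

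All 8 named mitotic kinesins were lower after the HOTAIR-N siRNA, 7 of them at least 2-fold, with a median log2 fold change of -1.10. Among all genes tested, 34.8% were lower and 6.84% were at least 2-fold lower. In each of the 8 genes all HOTAIR-N siRNA libraries lay below all control siRNA libraries. Such separation, here and below, was common: groups were also separate in 25 of the 30 dynein and dynactin genes tested. Its share over all genes tested is not given here. Their summed level was 198, 198 and 213 TPM with the HOTAIR-N siRNA, against 395, 424 and 398 TPM with the control siRNA, or 50.1% of the control mean. Within both groups the libraries that stood apart were high: HOTAIR-N siRNA replicate 3 was the highest of its group for 7 of the 8 genes and control siRNA replicate 2 was the highest of its group for 7 of the 8.

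Motors of the central spindle and of cytokinesis fell, with KIF23 furthest of the 8. KIF23, the motor of the centralspindlin complex that marks the midzone for cytokinesis, had 60.4, 60.5 and 63.7 CPM in HOTAIR-N siRNA replicates 1, 2 and 3, against 164, 179 and 167 CPM in control siRNA replicates 1, 2 and 3. This was a log2 fold change of -1.47 ± 0.050 (SE), or 36.1% of control (adjusted p = 2.55e-10, edgeR quasi-likelihood test). KIF20A, which brings Aurora B and its partners to the central spindle, had 51.9, 54.6 and 55.2 CPM with the HOTAIR-N siRNA, against 121, 121 and 123 CPM with the control siRNA. Its log2 fold change was -1.17 ± 0.046 (adjusted p = 6.68e-10), and the 3 libraries of each group differed little from one another. KIF14, which acts with citron kinase late in cytokinesis, had 41.7, 40.2 and 45.3 CPM with the HOTAIR-N siRNA, against 88.1, 102 and 92.7 CPM with the control siRNA. It fell by a log2 fold change of -1.15 ± 0.066 (adjusted p = 1.48e-08). KIF4A, a chromosome-bound motor that limits the length of the midzone with PRC1, had 38.1, 35.7 and 38.5 CPM with the HOTAIR-N siRNA, against 73.3, 81.1 and 77.8 CPM with the control siRNA. Its change of -1.05 ± 0.057 on the log2 scale left it at 48.4% of control (adjusted p = 8.94e-09). The reads of KIF4A may be split with KIF4B, a near-identical intronless copy listed at 3, 8 and 0 expected counts with the HOTAIR-N siRNA, against 10, 9 and 13 expected counts with the control siRNA.

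Motors that act on kinetochore microtubules fell to a similar degree. KIF18A, which gathers at microtubule plus ends and dampens chromosome movement, had 28.6, 29.6 and 33.0 CPM with the HOTAIR-N siRNA, against 66.0, 72.9 and 67.1 CPM with the control siRNA. It was at 44.3% of control (log2 fold change -1.18 ± 0.066, adjusted p = 1.21e-08). KIF2C, a microtubule-shortening kinesin that helps to correct wrong attachments at centromeres, had 52.3, 51.5 and 50.3 CPM with the HOTAIR-N siRNA, against 105, 109 and 103 CPM with the control siRNA. It was at 48.6% of control (log2 fold change -1.04 ± 0.048, adjusted p = 2.16e-09). The groups were far apart for both genes relative to the spread within them.

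The 2 motors that push spindle poles apart had fold changes of different size. KIF15, which can hold the poles apart when KIF11 is inhibited, had 23.9, 21.5 and 26.1 CPM with the HOTAIR-N siRNA, against 47.7, 51.7 and 47.9 CPM with the control siRNA. Its log2 fold change was -1.04 ± 0.072 (adjusted p = 7.46e-08). KIF11, the main pole-separating motor and the target of several antimitotic compounds, had 120.2, 120.1 and 136 CPM in HOTAIR-N siRNA replicates 1, 2 and 3, against 144, 165 and 149 CPM in control siRNA replicates 1, 2 and 3. It was at 82.1% of control (log2 fold change -0.28 ± 0.063, adjusted p = 0.00159), the smallest fall of the 8, and the highest HOTAIR-N siRNA library came within 10 CPM of the lowest control siRNA library. KIF11 did not pass a test against a 1.2-fold change (adjusted p = 0.288), which the other 7 passed. In TPM, which corrects for gene length, the ratio of KIF11 to KIF23 was 1.35, 1.35 and 1.44 in the HOTAIR-N siRNA libraries, against 0.593, 0.622 and 0.601 in the control siRNA libraries. The ratio of KIF11 to KIF15 was 4.79, 5.32 and 4.96 in the HOTAIR-N siRNA libraries, against 2.87, 3.04 and 2.96 in the control siRNA libraries. KIF23 therefore stood below KIF11 after the HOTAIR-N siRNA and above it in control cells. These gene pairs were chosen after their values were seen, and the ratios are a description.

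**Figure D3:**
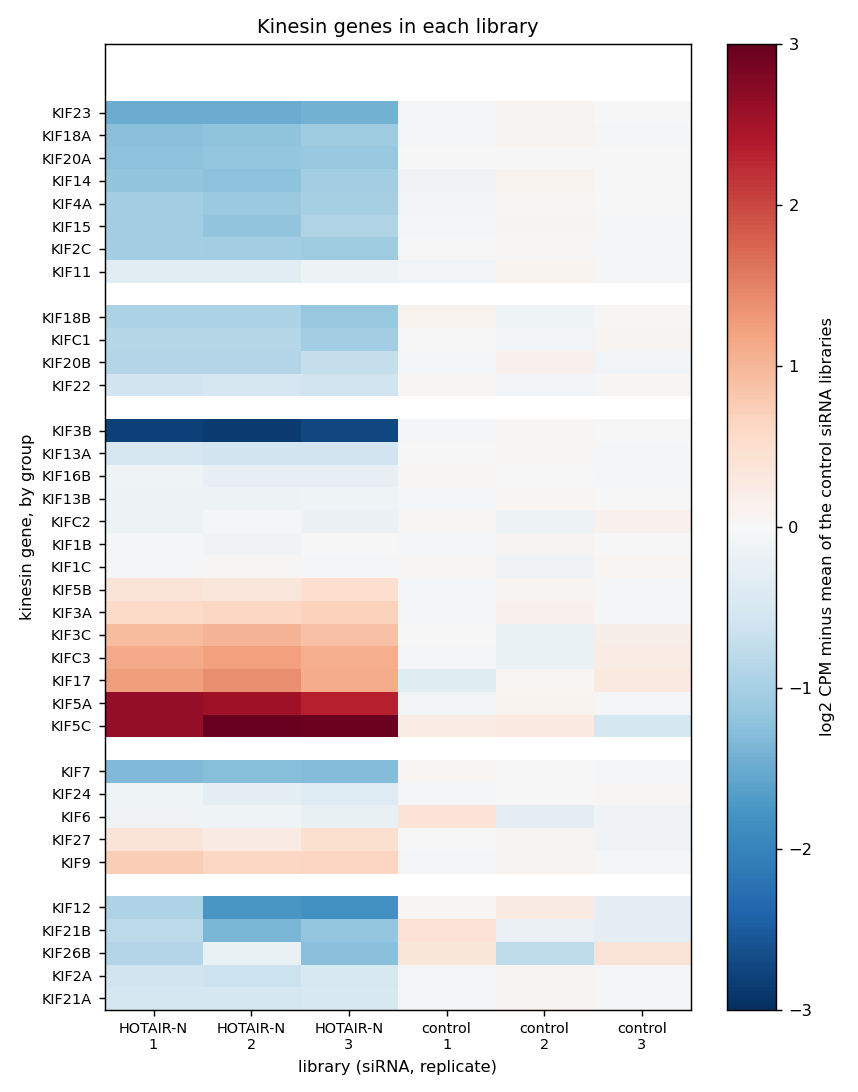
Log2 CPM of each of the 36 kinesin genes tested (rows, by group) in each library (columns) minus the mean of the control siRNA libraries, with blue for lower and red for higher values and a colour scale that ends at -3 and 3. The 8 named mitotic kinesins and the 4 other mitotic kinesins are lower in every HOTAIR-N siRNA library, with KIF11 the palest of them, and KIF3B, KIF5A and KIF5C have the largest differences.

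Of the 6 other mitotic kinesins, 4 passed the filter and all 4 were lower, where 34.8% of all genes tested were lower. KIF18B, which shortens astral microtubules with KIF2C, had 26.7, 26.6 and 23.6 CPM with the HOTAIR-N siRNA, against 55.7, 47.3 and 52.6 CPM with the control siRNA (log2 fold change -1.02 ± 0.073, adjusted p = 1.08e-07). KIFC1, a minus-end motor that draws spindle poles together, had 68.1, 67.9 and 59.7 CPM with the HOTAIR-N siRNA, against 124, 115 and 129.9 CPM with the control siRNA (log2 fold change -0.92 ± 0.063, adjusted p = 7.32e-08). KIF20B, which acts in cytokinesis, had 85.3, 85.4 and 94.8 CPM with the HOTAIR-N siRNA, against 151, 173 and 147 CPM with the control siRNA (log2 fold change -0.83 ± 0.066, adjusted p = 2.73e-07). In all 3 genes the groups were separate, and of the HOTAIR-N siRNA libraries replicate 3 was lowest for KIF18B and KIFC1 but highest for KIF20B. KIF22, a chromosome-bound motor that pushes chromosome arms outward, fell to 67.8% of control (adjusted p = 8.23e-07). By TPM it was the most abundant kinesin in both groups, at 73.8 ± 2.32 TPM with the HOTAIR-N siRNA and 107 ± 5.06 TPM with the control siRNA (SD, n = 3 each). KIF2B, a relative of KIF2C, had 3 or fewer expected counts over the HOTAIR-N siRNA libraries and over the control siRNA libraries. KIFC1 stands in the transcript tables as 3 copies of 1 RefSeq transcript, between which its reads cannot be assigned with certainty.

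The transport kinesins did not move in 1 direction. Of 14 that passed the filter, 7 were higher, 4 were lower and 3 did not pass the test, with a median log2 fold change of 0.20. Of all genes tested, 71.1% were called, 34.8% lower and 36.2% higher, so the shares called and lower were near the background. The share higher was above it by few genes in a list of 14, and this difference was not tested. At least 2-fold higher levels were found for 4 of the 14, where 8.91% of all genes tested rose that far. Of these 4, KIF17, KIF5A and KIF5C were rare. The summed level of the 15 was 258, 258 and 264 TPM with the HOTAIR-N siRNA, against 327, 331 and 328 TPM with the control siRNA, or 79.1% of the control mean. KIF3B alone differed by more than this sum did, with a mean of 13.7 ± 0.702 TPM with the HOTAIR-N siRNA and 93.4 ± 1.87 TPM with the control siRNA (SD, n = 3 each).

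The kinesin-2 motor of anterograde transport in cilia is a dimer of KIF3A and KIF3B with the accessory subunit KIFAP3, and its subunits changed in opposite directions. KIF3B had 43.4, 41.3 and 45.6 CPM in HOTAIR-N siRNA replicates 1, 2 and 3, against 298, 310.1 and 301 CPM in control siRNA replicates 1, 2 and 3. It was at 14.3% of control (log2 fold change -2.80 ± 0.049, adjusted p = 3.64e-12, edgeR quasi-likelihood test), the largest fall of any kinesin and the 42nd lowest log2 fold change of 14919 genes. KIF3A had 38.3, 39.3 and 41.4 CPM with the HOTAIR-N siRNA, against 24.6, 28.0 and 24.5 CPM with the control siRNA (log2 fold change 0.63 ± 0.066, adjusted p = 3.46e-06). The groups were separate for both subunits and the directions opposite. KIFAP3 averaged 35.9 ± 3.19 CPM with the HOTAIR-N siRNA and 30.2 ± 2.09 CPM with the control siRNA (log2 fold change 0.25 ± 0.074, adjusted p = 0.00996). KIF3C, which pairs with KIF3A in place of KIF3B, had 5.63, 5.90 and 5.33 CPM with the HOTAIR-N siRNA, against 2.94, 2.53 and 3.29 CPM with the control siRNA (log2 fold change 0.94 ± 0.12, adjusted p = 1.44e-05). KIF17, a kinesin-2 that works as a homodimer and carries receptor vesicles in mouse neurons, was rare, with 35, 35 and 30 expected counts with the HOTAIR-N siRNA, against 11, 14 and 17 expected counts with the control siRNA (log2 fold change 1.25 ± 0.24, adjusted p = 0.000498). KIF3A, KIF3C and KIF17 were higher in every HOTAIR-N siRNA library than in any control siRNA library.

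Per transcript length, KIF3B ranked 17th among the 42 kinesins with the HOTAIR-N siRNA and 3rd with the control siRNA. In control cells it stood level with KIF23, at 93.4 ± 1.87 and 94.3 ± 4.26 TPM, a difference smaller than the spread of the libraries. The TPM ratio of KIF3A to KIF3B was 0.858, 0.927 and 0.886 in the HOTAIR-N siRNA libraries, against 0.0806, 0.0880 and 0.0795 in the control siRNA libraries. KIF3A was thus nearly as abundant as KIF3B after the HOTAIR-N siRNA and far scarcer in control cells.

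**Figure D4:**
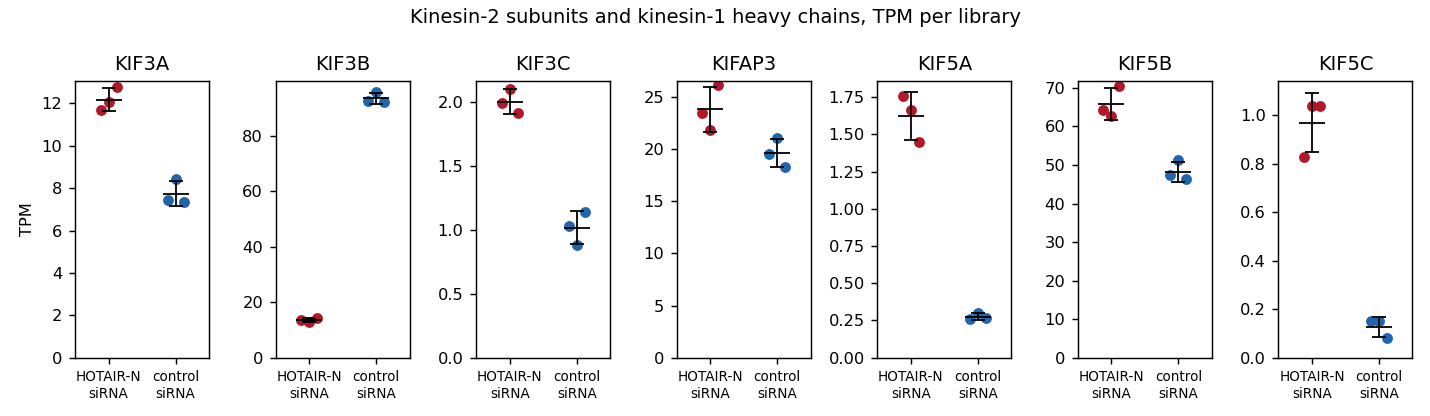
TPM (vertical axes, each from 0 with its own scale) of the kinesin-2 genes KIF3A, KIF3B, KIF3C and KIFAP3 and the kinesin-1 heavy chains KIF5A, KIF5B and KIF5C in each library, with the mean and SD of 3 libraries per group. KIF3B is lower with the HOTAIR-N siRNA, at 13.0 to 14.4 TPM against 92.2 to 95.6 TPM with the control siRNA, and the other 6 genes are higher.

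Kinesin-1 carries mitochondria and vesicles outward along microtubules, and all 3 of its heavy chain genes were higher. KIF5B, the form found in most tissues, had 197, 191 and 215 CPM with the HOTAIR-N siRNA, against 147, 159.9 and 145 CPM with the control siRNA (log2 fold change 0.42 ± 0.055, adjusted p = 2.39e-05). KIF5A, mostly a neuronal form, had 195, 165 and 151 expected counts with the HOTAIR-N siRNA, against 29, 31 and 29 expected counts with the control siRNA (log2 fold change 2.52 ± 0.15, adjusted p = 1.73e-08). KIF5C, also enriched in neurons, had 105, 124 and 124 expected counts with the HOTAIR-N siRNA, against 19, 19 and 11 expected counts with the control siRNA (log2 fold change 2.85 ± 0.21, adjusted p = 1.45e-07). Both neuronal forms stayed rare beside KIF5B: the TPM ratio of KIF5C to KIF5B was 0.0129, 0.0166 and 0.0147 in the HOTAIR-N siRNA libraries, against 0.00317, 0.00293 and 0.00173 in the control siRNA libraries. KIF5C had the largest rise of any kinesin, on 105 to 124 expected counts per HOTAIR-N siRNA library.

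Among the other transport motors, KIFC3, a minus-end motor found at epithelial junctions, had 13.2, 14.1 and 12.9 CPM with the HOTAIR-N siRNA, against 5.94, 5.30 and 7.05 CPM with the control siRNA (log2 fold change 1.14 ± 0.098, adjusted p = 5.64e-07). The lowest of its HOTAIR-N siRNA libraries was well above the highest control siRNA library. KIF13A, which moves cargo from the trans-Golgi network and recycling endosomes, had 109, 103 and 103 CPM with the HOTAIR-N siRNA, against 153, 159 and 152 CPM with the control siRNA (log2 fold change -0.55 ± 0.045, adjusted p = 3.63e-07). KIF16B, a motor of early endosomes, had 35.6, 32.4 and 32.8 CPM with the HOTAIR-N siRNA, against 39.7, 38.8 and 37.4 CPM with the control siRNA (log2 fold change -0.20 ± 0.058, adjusted p = 0.00758). KIF13B, a relative of KIF13A, had 33.6, 33.6 and 34.3 CPM with the HOTAIR-N siRNA, against 35.9, 38.8 and 37.8 CPM with the control siRNA (log2 fold change -0.15 ± 0.054, adjusted p = 0.0276). The falls of KIF16B and KIF13B were small: neither passed with scaling by library totals alone, at adjusted p = 0.119 and 0.406, or against a 1.2-fold change. KIF13B also lost its call with upper-quartile scaling (adjusted p = 0.146) and without HOTAIR-N siRNA replicate 1 or 2 or control siRNA replicate 3, at adjusted p between 0.0664 and 0.0816.

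The 3 transport kinesins that did not pass the test were KIF1B, KIF1C and KIFC2. KIF1B, a carrier of mitochondria and of synaptic vesicle precursors in mouse neurons, had 103, 99.7 and 105 CPM with the HOTAIR-N siRNA, against 102, 112 and 106 CPM with the control siRNA (log2 fold change -0.05 ± 0.050, adjusted p = 0.37). KIF1C, a vesicle motor, had 222, 231 and 217 CPM with the HOTAIR-N siRNA, against 231, 211 and 237 CPM with the control siRNA (log2 fold change -0.02 ± 0.049, adjusted p = 0.745). The groups overlapped for both. KIFC2, a minus-end motor first described in mouse neurons, had 43.4, 47.01 and 42.6 CPM with the HOTAIR-N siRNA, against 49.1, 43.4 and 52.3 CPM with the control siRNA (log2 fold change -0.12 ± 0.071, adjusted p = 0.141). Without control siRNA replicate 2, the lowest control library for KIFC2, its log2 fold change was -0.20 (adjusted p = 0.00777). KIFC2 shares 791 exon bases with FOXH1, which runs the other way, and neither the labels nor the file headers say whether reads were counted by strand. KIF1A, the neuronal carrier of synaptic vesicle precursors, was below the filter, with 8, 9 and 6 expected counts with the HOTAIR-N siRNA, against 0, 1 and 4 expected counts with the control siRNA.

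Of the 6 cilium and centriole kinesins 5 were tested, and 2 were higher and 2 lower. These shares were near those of all genes tested, of which 71.1% were called, 36.2% higher and 34.8% lower. KIF7, a regulator of Hedgehog signalling at the cilium tip, had 1.59, 1.64 and 1.62 CPM with the HOTAIR-N siRNA, against 4.15, 4.02 and 3.81 CPM with the control siRNA (log2 fold change -1.30 ± 0.12, adjusted p = 1.18e-06). KIF27, its closest relative, averaged 6.61 ± 0.566 CPM with the HOTAIR-N siRNA and 5.10 ± 0.322 CPM with the control siRNA (log2 fold change 0.37 ± 0.099, adjusted p = 0.00479). These relatives thus moved in opposite directions. KIF7 shares 47 exon bases with TICRR on the opposite strand, which also fell (log2 fold change -1.25 ± 0.053). KIF9, a kinesin of motile cilia and sperm flagella in mice, had 22.0, 20.3 and 20.7 CPM with the HOTAIR-N siRNA, against 12.8, 13.997 and 12.9 CPM with the control siRNA (log2 fold change 0.67 ± 0.066, adjusted p = 2.17e-06). Its exons share 569 bases with KIF9-AS1 and 149 bases with KLHL18, both on the opposite strand. Both neighbours fell, KIF9-AS1 with a log2 fold change of -1.24 ± 0.29 (adjusted p = 0.00233) and KLHL18 with one of -0.47 ± 0.054. KIF24, which restrains the growth of cilia at centrioles, averaged 17.6 ± 1.48 CPM with the HOTAIR-N siRNA and 21.2 ± 0.446 CPM with the control siRNA (log2 fold change -0.27 ± 0.070, adjusted p = 0.00469). KIF27 and KIF24 did not pass the test against a 1.2-fold change. KIF6 did not pass the main test (log2 fold change -0.18 ± 0.20, adjusted p = 0.433), and KIF19, a microtubule-shortening kinesin of motile cilia in mice, had 1 expected count over the HOTAIR-N siRNA libraries and 2 over the control siRNA libraries.

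Of the 7 other kinesins 5 were tested and 4 were lower, where 34.8% of all genes tested were lower. The share called in either direction was near the 71.1% of all genes tested. KIF2A, a microtubule-shortening kinesin of spindle poles and neurons, was at 67.1% of control (adjusted p = 2.26e-06). KIF21A, which slows microtubule growth, was at 70.3% (adjusted p = 3.24e-06). KIF21B, its relative, was rare, with 23, 14 and 17 expected counts with the HOTAIR-N siRNA, against 54, 33 and 32 expected counts with the control siRNA (log2 fold change -1.13 ± 0.26, adjusted p = 0.00211). KIF12 was rare too, with 20, 10 and 10 expected counts with the HOTAIR-N siRNA, against 38, 42 and 30 expected counts with the control siRNA (log2 fold change -1.45 ± 0.28, adjusted p = 0.000532). HOTAIR-N siRNA replicate 1 was the highest of its group for both of these rare genes. KIF26B, with 11, 16 and 8 expected counts with the HOTAIR-N siRNA, against 26, 11 and 26 expected counts with the control siRNA, did not pass (adjusted p = 0.0602). It was lower at adjusted p = 0.0313 without HOTAIR-N siRNA replicate 2 and at 0.00824 without control siRNA replicate 2. KIF25 and KIF26A were below the filter.

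Transcript forms within each gene could be compared for 46 transcripts of 16 kinesin genes, as the share of a gene's reads that RSEM assigned to each RefSeq transcript. These numbers include KIFC1, whose 3 entries are copies of 1 transcript and not different forms. With limma on log2 shares, 5 transcripts of 3 genes changed at an adjusted p under 0.05, while 8.15% of 25038 transcripts of all genes did. The kinesin share called was near that background. Shares within a gene depend on one another, so calls in the same gene are not independent. In KIF9, NM_182902 (3357 bases) made up 69.2%, 69.8% and 66.9% of the gene's TPM in the HOTAIR-N siRNA libraries, against 34.1%, 37.2% and 35.1% in the control siRNA libraries (adjusted p = 0.0031). NM_022342 (3162 bases) made up 14.7%, 20.8% and 23.6% in the HOTAIR-N siRNA libraries, against 51.6%, 43.1% and 51.2% in the control siRNA libraries (adjusted p = 0.0239). The leading KIF9 transcript therefore differed between the groups in every library. In KIFC3, NM_001318714 (3784 bases) made up 28.4 ± 3.37% with the HOTAIR-N siRNA and 9.74 ± 1.05% with the control siRNA (SD, n = 3 each, adjusted p = 0.0155). In KIF1B, whose total did not pass the test, the longer NM_015074 (10581 bases) made up 68.0 ± 0.872% with the HOTAIR-N siRNA and 61.6 ± 0.540% with the control siRNA (adjusted p = 0.0124), and NM_183416 (7664 bases) made up the rest (adjusted p = 0.0099). These calls depended on the test: edgeR's diffSpliceDGE called 0 of the 46, with 2 at an unadjusted p under 0.05. Over all genes diffSpliceDGE called 572 of 25038 transcripts. Without HOTAIR-N siRNA replicate 3 and control siRNA replicate 2, limma called 0 of 47, with 11 at an unadjusted p under 0.05. Over all genes limma then called 44 of 25751 transcripts, so calls were lost in general. Leaving out 1 library at a time gave 3 to 6 calls, with 3 without HOTAIR-N siRNA replicate 2 and 3 without control siRNA replicate 3. Over all genes this gave 1204 to 1298 calls.

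**Figure D5:**
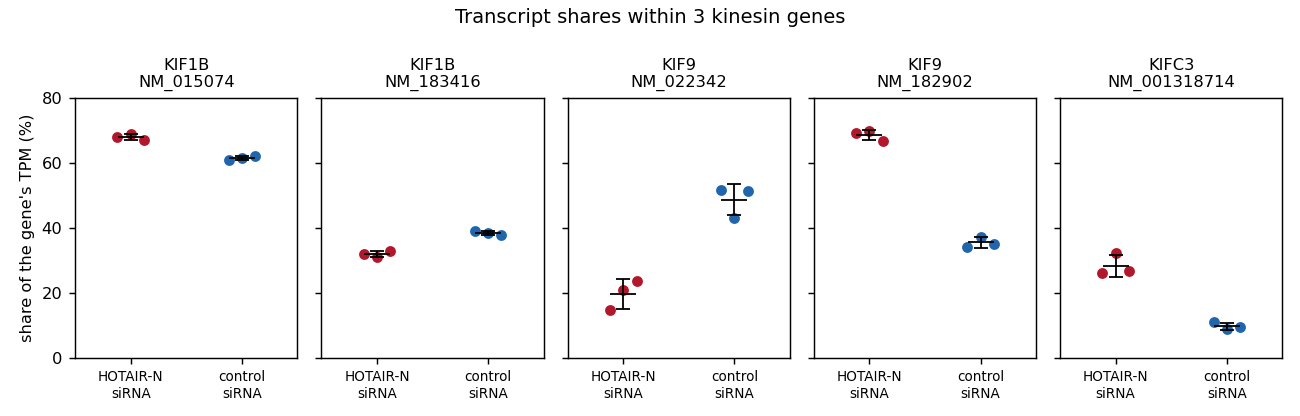
Share of the gene's TPM (vertical axis, percent) of the 5 kinesin transcripts called with limma, in each library, with the mean and SD of 3 libraries per group. The groups do not overlap in any panel, and NM_182902 of KIF9 stands at 66.9% to 69.8% with the HOTAIR-N siRNA and 34.1% to 37.2% with the control siRNA.

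Genes that work with these motors were counted from 3 further lists. Of 25 tested partners and regulators of the mitotic kinesins, 21 were lower and 4 were higher, with a median log2 fold change of -0.91, where 34.8% of all genes tested were lower. This list holds CENPE, itself a mitotic kinesin, which the rule on gene symbols left out of the 42 members. CDCA8 is a subunit of the chromosomal passenger complex carried by KIF20A. It averaged 22.0 ± 1.28 CPM with the HOTAIR-N siRNA and 100.2 ± 1.37 CPM with the control siRNA (log2 fold change -2.19 ± 0.056). CIT, the citron kinase that acts with KIF14, had a log2 fold change of -1.21 ± 0.047, and the mitotic kinase PLK1 and cyclin CCNB1 had log2 fold changes of -1.18 ± 0.044 and -1.16 ± 0.041. The 4 that rose against the rest were the kinases NEK7 (0.23) and NEK9 (0.37) and the microtubule end-binding genes MAPRE2 (1.93) and MAPRE3 (0.24), in log2 fold change, while MAPRE1 fell (-0.60).

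Of 21 tested light chains and cargo adaptors of kinesins, 11 were higher, 4 were lower and 6 did not pass, with a median log2 fold change of 0.14. The share called was close to the 71.1% of all genes tested, of which 36.2% were higher and 34.8% lower. MAPK8IP2, a scaffold that links kinesin-1 to cargo, averaged 24.8 ± 3.33 CPM with the HOTAIR-N siRNA and 2.43 ± 0.216 CPM with the control siRNA (log2 fold change 3.35 ± 0.12). MAPK8IP1, the related scaffold, averaged 35.8 ± 2.05 CPM with the HOTAIR-N siRNA and 11.03 ± 0.857 CPM with the control siRNA (log2 fold change 1.70 ± 0.073). The lower genes included GRIP1, an adaptor of KIF5 in neurons, at -2.02, the scaffold SPAG9 at -0.31 and the kinesin-binding gene KIF1BP at -0.25, in log2 fold change. Among the light chains of kinesin-1, KLC1 and KLC4 rose with log2 fold changes of 0.14 and 0.47, while KLC2 (-0.08) and KLC3 (0.23) did not pass the test.

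Cytoplasmic dynein and dynactin move cargo toward microtubule minus ends, opposite to most kinesins. Of 30 tested genes of these complexes and their adaptors, 19 were lower, 7 were higher and 4 did not pass, with a median log2 fold change of -0.19, where 34.8% of all genes tested were lower and 36.2% higher. The 4 with the smallest p all fell, namely the light intermediate chain DYNC1LI2 (log2 fold change -1.57 ± 0.055), the adaptors BICD2 (-1.30 ± 0.053) and HOOK1 (-1.38 ± 0.073) and the kinetochore adaptor SPDL1 (-1.38 ± 0.074). The 7 higher genes were the heavy chain DYNC1H1, the light chains DYNLRB2 and DYNLT1, the dynactin genes DCTN4 and ACTR1B and the adaptors BICDL1 and HOOK2, with log2 fold changes between 0.23 and 0.98.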

How the data were processed

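Total RNA of 6 T47D libraries was sequenced, 3 per siRNA, from transfections that the series' design calls independent. Reads were processed with STAR 2.6.0c and RSEM 1.3.0 on hg19, per the submitters' processing notes, whose settings are not at hand. Per the file headers, the deposited gene and transcript tables hold expected counts, TPM and FPKM, and the transcript tables hold each transcript's share of its gene as a percent made by the authors' RSEM run. FPKM was not used.

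Expected counts were rounded, filtered with filterByExpr (minimum count 10, minimum total 15), scaled by TMM and tested with edgeR 4.0.16 (quasi-likelihood, R 4.3.3) over all 6 libraries without covariates. Adjusted p-values are Benjamini-Hochberg over all genes tested, and genes were called under 0.05. CPM are TMM-scaled, and SD refers to 3 libraries per group. The SE of a gene's log2 fold change is its size divided by the square root of edgeR's quasi-likelihood F. That F rests on a variance estimate that borrows from all genes tested. In every pair of libraries of a group the counts differed by more than sampling noise (lowest chi-square over its degrees of freedom 2.21), so all were kept. Transcript use was tested with limma 3.58.1 on the log2 share of each transcript's rounded expected count in its gene, with a pseudocount of 1 per transcript. Both steps were tested on simulated counts with planted changes. Promoters are RefSeq windows and exon overlaps come from GENCODE, both of a later build than the authors' files, so no coordinate of a file was converted.

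The kinesin genes and all lists were chosen with earlier results of these data known. By the naming rule, any kinesin may be named. The 8 mitotic and the transport kinesins and those changed at least 1.5-fold get values per library, and other lists give the 4 genes with the smallest p and any called against the rest. KIFAP3, MAPRE1, CENPE and the light chains were named after their values were seen. A gene that the rule would name is not reported here. Alternatives were DESeq2 1.42.0 and its size factors, library totals, upper-quartile scaling, limma-voom, no filter, 1 CPM in 3 libraries, a replicate block, a test against a 1.2-fold change, leaving out libraries, and for transcripts diffSpliceDGE, a minimum of 20 expected counts and a pseudocount of 5.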

Additional observations from a re-analysis of the deposited data

How the results depend on the processing

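Directions and calls of the kinesin genes rarely changed. Of 572 values of single kinesin genes under 16 alternatives, 548 kept direction and side of the threshold, 12 lost the call, 6 gained it and 6 turned direction; 26 of 36 genes kept both throughout. The values that turned were never called: KIF1B at 0.047 (library totals) and 0.0059 (upper quartile), KIF1C at 0.079 (library totals), 0.038 (upper quartile) and between -0.073 and 0.0095 with 1 library left out, and KIF6 between -0.33 and 0.044 with 1 library left out, in log2 fold change. Library totals alone moved the median of all genes to 0.12. Transport kinesins called lower numbered 2 with library totals and 2 against a 1.2-fold change, under which 6876 genes of all were called. At least 2-fold falls numbered 8 with library totals or upper-quartile scaling.

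Leaving out 1 library gave 21 to 24 kinesins lower, 9 higher, 8 named mitotic kinesins lower, 3 to 5 transport kinesins lower, 7 transport kinesins higher, 10 to 13 kinesins at least 2-fold lower and 9906 to 10727 genes called. It also gave 3 to 6 kinesin transcripts with changed use, where 1204 to 1298 transcripts of all genes were called. Without HOTAIR-N siRNA replicate 3 and control siRNA replicate 2, chosen after seeing the data, 24 kinesins were lower and 9 were higher. Of all 15082 genes tested in that setting, 5604 were lower and 5526 higher. There limma called 0 kinesin transcripts and 44 of 25751 over all genes. On all libraries diffSpliceDGE also called 0 kinesin transcripts, and 572 of 25038 over all genes. Deviations of same-numbered libraries from their group means had correlations of -0.04, -0.21 and -0.12. Pairs of different number ranged from -0.13 to 0.22, the highest being HOTAIR-N siRNA replicate 3 with control siRNA replicate 2. With few libraries per group and those 2 standing apart, the correlations cannot show whether the numbers pair the libraries. With the replicate block, 21 kinesins were lower, 9 were higher, 8 named mitotic kinesins were lower, 10010 genes were called and 0 kinesin transcripts were called with limma (9 at an unadjusted p under 0.05). Over all genes, limma with the block called 208 of 25038 transcripts. The cause of these moves was not tested.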

Other observations

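An earlier look at these fold changes drew attention to the 7 bases GACCAAT in 3′ UTRs of genes that fell. For each gene only the GENCODE 3′ UTR of the transcript with the longest coding sequence was searched, and among equals the longest 3′ UTR. The word was in 0 of the 36 kinesin genes tested, KIF3B and the mitotic kinesins included, and in 4.88% of 19101 protein-coding genes. No match says only that these letters are not in the 3′ UTRs searched, and other annotated 3′ UTRs of these genes were not searched.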
